A study of Homo sapiens with 6 samples.

Results

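The genes described here are those of the switch that commits a cell to DNA synthesis: the D cyclins CCND2 and CCND3 with their kinases CDK4 and CDK6, the E cyclins CCNE1 and CCNE2 with their kinase CDK2, and the RB family genes RB1, RBL1 and RBL2. They were chosen by name, and all 10 were found among the 78932 gene identifiers of the count files, of which 17677 had enough reads to be tested. RNA was sequenced from Karpas-45, a human T-lineage acute lymphoblastic leukemia cell line that carries a fusion of KMT2A to FOXO4. One group carried a scramble hairpin (labelled WT) and the other a hairpin against MEF2C (labelled MEF2C KD, shMEF2CKD2), a MADS-box transcription factor. All cells received a lentivirus whose short hairpin RNA is linked to GFP, were otherwise untreated, and were sorted for GFP 120 hours after transduction. Each group held 3 libraries that the labels call technical replicates of 1 line and 1 hairpin, and every p-value below therefore rests on the scatter of technical replicates alone.

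D cyclins bind CDK4 or CDK6 in early G1, and the complexes phosphorylate the RB family proteins, which otherwise hold E2F transcription factors in check. Released E2F switches on the E cyclins and the genes of DNA synthesis, and cyclin E with CDK2 completes the phosphorylation of RB. Cyclin D3 is the D cyclin on which thymocyte expansion depends, CDK6 is the prominent D-cyclin kinase of the T lineage, and inhibitors of these kinases are studied in T-cell leukemia.

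Gene totals ran from 45560303 to 97077335 reads. MEF2C itself had 2, 1 and 0 reads in scramble and 2, 0 and 0 in hairpin libraries, 5 in all. The targeted gene was thus barely detected in either group. It cannot check the labels, and a knockdown of its RNA cannot be seen. All 10 T-cell markers examined lay above 1 CPM (read counts scaled to a common library size) in every library, with sums of 2840 to 2910 CPM in scramble and 3110 to 3190 in hairpin libraries. The summed myeloid, NK and stromal markers stayed at or under 2.66 CPM, and the B-cell markers lay at 3.05 to 3.59 CPM in scramble and 4.24 to 4.39 in hairpin libraries. Erythroid markers reached 6.09 CPM in scramble replicate 1, through HBB, against at most 1.86 in the other libraries. In hairpin replicate 3, 16.1% of reads aligned to more than 1 place, against 3.56 to 6.86% elsewhere. The part of these differences in the results below was not tested, but each result was recomputed without each library. In bulk RNA, fewer cells of a kind and less RNA per cell cannot be told apart.

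Of the 10 genes, 9 were detected and CCND2 had 0 reads. In the MEF2C hairpin libraries 6 of the 9 tested genes fell (edgeR quasi-likelihood test, Benjamini-Hochberg adjusted p under 0.05) and none rose. None rose either at an unadjusted p under 0.05, nor in DESeq2 or limma-voom, where the adjusted counts were also 6 lower and 0 higher. Of all tested genes 28.8% passed this threshold, 15.3% as lower and 13.5% as higher. The 2 genes with falls beyond a few percent were CCNE1, by 21.6%, and RBL1, by 12.6%. CCND3, CDK6, RB1 and RBL2 fell by 4.22 to 5.5%, and CDK4, CDK2 and CCNE2 did not pass the test. All 3 hairpin libraries lay below all 3 scramble libraries for the same 6 genes, and the groups overlapped for the other 3. Of all tested genes 20.5% had all hairpin libraries lower, and 39.9% had groups that did not overlap in either direction. These shares cover genes of all levels. None was computed for genes at 100 CPM or more alone, where 5 of the 6 genes lie.

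The smaller falls have to be read against what other abundant genes did. Of the 2547 tested genes with a mean of at least 100 CPM, 44.9% were lower and 12.6% higher, with a median log2 fold change of -0.05. Of the 7 members in that class 5 were lower: CCND3, CDK6, RB1, RBL1 and RBL2. The median over the 9 tested members was -0.06, against 0.00 over all tested genes. CCNE2 belongs to the class of 20 to 100 CPM, in which 23.5% of genes were lower and 17.0% higher. CCNE1 belongs to the class of 5 to 20 CPM, in which 8.75% of genes were lower, 22.4% were higher, and the median log2 fold change was 0.04. With an offset for GC content and exon length, 3 members stayed lower, CCND3, CCNE1 and RBL1, while CDK6, RB1 and RBL2 no longer passed.

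The promoters of the 2 genes with the largest falls are shown because both genes are known to respond to E2F. CCNE2, the other E cyclin, did not pass the test and had no matched window. A part of E2F in the falls was not tested. The windows span 250 bases before to 50 after the RefSeq start on GRCh38.p14, written along the gene's strand. RBL1 lies on the minus strand at chr20:37095948-37096247 and CCNE1 on the plus strand at chr19:29811741-29812040. Capitals mark the E2F words TTTCCCGC, TTTCGCGC, TTTGCCGC and TTTGGCGC, searched on both strands.
RBL1: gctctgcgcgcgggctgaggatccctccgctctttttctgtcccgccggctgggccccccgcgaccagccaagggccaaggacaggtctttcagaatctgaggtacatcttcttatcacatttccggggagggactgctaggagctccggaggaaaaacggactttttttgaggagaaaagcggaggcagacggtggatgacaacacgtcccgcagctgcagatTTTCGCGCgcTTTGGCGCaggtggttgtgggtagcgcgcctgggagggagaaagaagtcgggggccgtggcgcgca
CCNE1: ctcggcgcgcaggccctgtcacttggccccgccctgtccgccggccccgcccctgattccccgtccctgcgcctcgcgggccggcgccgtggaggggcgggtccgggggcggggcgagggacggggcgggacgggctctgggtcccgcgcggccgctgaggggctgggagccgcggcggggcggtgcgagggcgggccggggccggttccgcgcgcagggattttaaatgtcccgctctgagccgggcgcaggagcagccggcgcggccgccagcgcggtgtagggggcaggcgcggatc
The RBL1 window held 2 such words close together, TTTCGCGC from 26 bases and TTTGGCGC from 16 bases before the start. Of 35116 promoter windows of this length 3.31% held at least 1 of the words and 0.145% held 2 or more. The CCNE1 window held none of these letters, which says nothing about E2F binding there. RefSeq windows were matched for 7 of the 10 genes, 11 windows in all, and of these 11 only that of RBL1 held an E2F word. The single RB1 window lies 172.7 kb inside the gene from its GENCODE start, so the promoter at that start was not searched. The MEF2 consensus, searched on both strands, was in none of the 11, against 2.99% of all windows. At that share 11 windows are too few to show a lack of sites.

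The stated hairpin target also gives letters to look for in the members' 3' UTRs. A 7-base match to bases 2 to 8 of the hairpin's antisense strand reads GGAATGA, and one to its sense strand TCATTGG, taking each strand to begin at the end of the stated target. GGAATGA was in 9.92% and TCATTGG in 8.0% of 19039 annotated 3' UTRs. None of the 10 members held either, and the longest of their 3' UTRs, that of CDK6, spans 10219 bases. At such shares 10 genes are too few to show a lack of sites.

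Nearly all D-cyclin reads counted were those of CCND3, the gene of cyclin D3. CCND2 (ENSG00000118971.9, chromosome 12, 4273772 to 4305350, plus strand) received 0 reads in all 6 libraries. A count of 0 allows up to 3 reads, or 0.00797 CPM over the 6 libraries together and 0.0309 to 0.0658 CPM in single libraries, counting error only. Its antisense neighbour CCND2-AS1 and a second coding gene that overlaps it, ENSG00000285901, were at 0 reads as well. In GENCODE 29, 13.8% of the exonic bases of CCND2 are shared with these genes. The overlap in the annotation used for counting, and whether reads in shared bases were dropped, are not known. A count of 0 here therefore need not mean that CCND2 was silent. CCND1, the D cyclin of many epithelial cells and not one of the 10 genes, was barely detected, at 0.209 ± 0.0676 CPM in scramble and 0.370 ± 0.139 CPM in hairpin libraries (SD, n = 3 each; edgeR adjusted p = 0.191). Per kilobase of exon, CCND3 made up 99.91 to 99.98% of the D-cyclin reads counted in every library.

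CCND3 (ENSG00000112576.13, chromosome 6, 41934933 to 42050357, minus strand) measured 685, 713 and 692 CPM in scramble replicates 1 to 3 and 678, 668 and 655 CPM in hairpin replicates 1 to 3. The groups did not overlap, but the gap between the lowest scramble and the highest hairpin library was smaller than the range within either group. On the log2 scale the change was -0.06 (SE 0.0201, 95% interval -0.10 to -0.02, edgeR adjusted p = 0.0158). The call was lost with no count filter (adjusted p = 0.0528) and without scramble replicate 2, hairpin replicate 2 or hairpin replicate 3 (0.166, 0.0514 and 0.0990), over alternatives that ranged from 0.00367 to 0.166.

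CDK6, one of the kinases that cyclin D3 activates (ENSG00000105810.10, chromosome 7, 92604921 to 92836594, minus strand), measured 1388, 1339 and 1331 CPM in scramble replicates 1 to 3. The hairpin libraries gave 1293, 1278 and 1316 CPM, all below the scramble libraries by a margin narrower than the spread inside each group. This is a log2 fold change of -0.06 (SE 0.0191, 95% interval -0.10 to -0.02, edgeR adjusted p = 0.0114). It was lost without scramble replicate 1 (adjusted p = 0.123), without hairpin replicate 2 (0.0927), and with the GC and length offset (-0.03, adjusted p = 0.120), in a range of 0.00110 to 0.160.

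CDK4, the other D-cyclin kinase (ENSG00000135446.17, chromosome 12, 57747727 to 57756013, minus strand), measured 144, 158 and 164 CPM in scramble and 153, 156 and 155 CPM in hairpin libraries. The hairpin values lay inside the scramble range. The estimated log2 fold change was 0.00 with a 95% interval of -0.07 to 0.07 (edgeR adjusted p = 0.975), so a change of the size seen in CDK6 is not excluded. Exons of TSPAN31 on the opposite strand cover 43.2% of the exonic bases of CDK4, and whether the counting used strand is not known. Per kilobase of exon, CDK6 made up 67.7 to 71.3% of the CDK4 and CDK6 reads in scramble and 67.9 to 68.7% in hairpin libraries, which overlap.

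The E cyclins parted ways. CCNE1 (ENSG00000105173.14, chromosome 19, 29811898 to 29824308, plus strand), which together with CCNE2 activates CDK2, measured 10.0, 11.1 and 10.5 CPM in scramble replicates 1 to 3 and 8.05, 8.57 and 8.11 CPM in hairpin replicates 1 to 3. The groups were clearly apart, with the highest hairpin library well under the lowest scramble library. Its log2 fold change was -0.35 (SE 0.0807, 95% interval -0.51 to -0.19, edgeR adjusted p = 0.000797). It passed under all 15 alternatives, with values from -0.39 to -0.31 and adjusted p from 0.000528 to 0.00844. No exon of another gene overlaps CCNE1 in GENCODE 29.

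CCNE2 (ENSG00000175305.18, chromosome 8, 94879770 to 94896678, minus strand) measured 94.0, 95.1 and 95.6 CPM in scramble and 93.7, 99.1 and 93.1 CPM in hairpin libraries. The hairpin libraries lay on both sides of the scramble range. On the log2 scale the difference was 0.01 with a 95% interval of -0.05 to 0.07 (edgeR adjusted p = 0.874), an interval that does not reach the fall of CCNE1. Exons of other genes, INTS8 among them, cover 37.1% of CCNE2.

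CCNE1 was the minor E cyclin, and its share was lower in the hairpin libraries. Its share of E-cyclin reads per kilobase of exon was 15.5, 16.8 and 16.0% in scramble and 12.9, 13.0 and 13.1% in hairpin libraries. The log2 ratio of CCNE1 to CCNE2 CPM was 0.36 lower in hairpin libraries, at -3.17 ± 0.0690 in scramble and -3.53 ± 0.0100 in hairpin libraries (SD, n = 3 each). An exact two-sided permutation test over the 6 libraries gave p = 0.1, the smallest it can give with 3 against 3, and 0.1 after adjustment over the 3 ratios tested.

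CDK2, the kinase of both E cyclins (ENSG00000123374.11, chromosome 12, 55966769 to 55972784, plus strand), measured 170, 172 and 179 CPM in scramble and 181, 179 and 172 CPM in hairpin libraries. The values intermingle. An estimated log2 fold change of 0.03 had a 95% interval of -0.02 to 0.08 (edgeR adjusted p = 0.403). Exons of PMEL and of an antisense gene cover 16.8% of CDK2.

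All 3 RB family genes were lower, RBL1 by the most. RBL1 encodes p107, the family member whose own gene is an E2F target (ENSG00000080839.12, chromosome 20, 36996349 to 37095995, minus strand). It measured 188, 188 and 184 CPM in scramble replicates 1 to 3 and 163, 161 and 166 CPM in hairpin replicates 1 to 3, far apart compared with the spread in either group. The change was -0.19 on the log2 scale (SE 0.0237, 95% interval -0.24 to -0.15, edgeR adjusted p = 2.76e-08). It passed under all 15 alternatives, with values from -0.21 to -0.16.

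RB1, the retinoblastoma tumour suppressor (ENSG00000139687.17, chromosome 13, 48303726 to 48599436, plus strand), measured 298, 287 and 288 CPM in scramble and 276, 275 and 278 CPM in hairpin libraries. The groups did not overlap, and scramble replicate 1 was the highest library. This gave a log2 fold change of -0.08 (SE 0.0219, 95% interval -0.12 to -0.03, edgeR adjusted p = 0.00716). The call was lost without scramble replicate 1 (adjusted p = 0.0730) and with the GC and length offset (-0.04, adjusted p = 0.118), in a range of 0.00434 to 0.148.

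RBL2 encodes p130, the RB family protein of resting cells (ENSG00000103479.17, chromosome 16, 53433977 to 53491649, plus strand). It measured 148, 145 and 147 CPM in scramble and 137, 142 and 136 CPM in hairpin libraries, with hairpin replicate 2 closest to the scramble values. Its log2 fold change was -0.08 (SE 0.0252, 95% interval -0.13 to -0.03, edgeR adjusted p = 0.0120). The call was lost without hairpin replicate 1 (adjusted p = 0.0544), without hairpin replicate 3 (0.0624) and with the GC and length offset (-0.05, adjusted p = 0.136), in a range of 0.00807 to 0.146. Other exons, AKTIP among them, cover 18.2% of RBL2.

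Within the family RBL1 made up a smaller share in the hairpin libraries. Its share of RB family reads per kilobase of exon was 32.3, 32.9 and 32.4% in scramble and 30.8, 30.3 and 31.1% in hairpin libraries, which do not overlap. The log2 ratio of RBL1 to RB1 was 0.12 lower and that of RBL1 to RBL2 0.11 lower in the hairpin libraries. The exact two-sided permutation test gave p = 0.1 for each, the smallest possible, and 0.1 after adjustment over the 3 ratios.

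**Figure D1:**
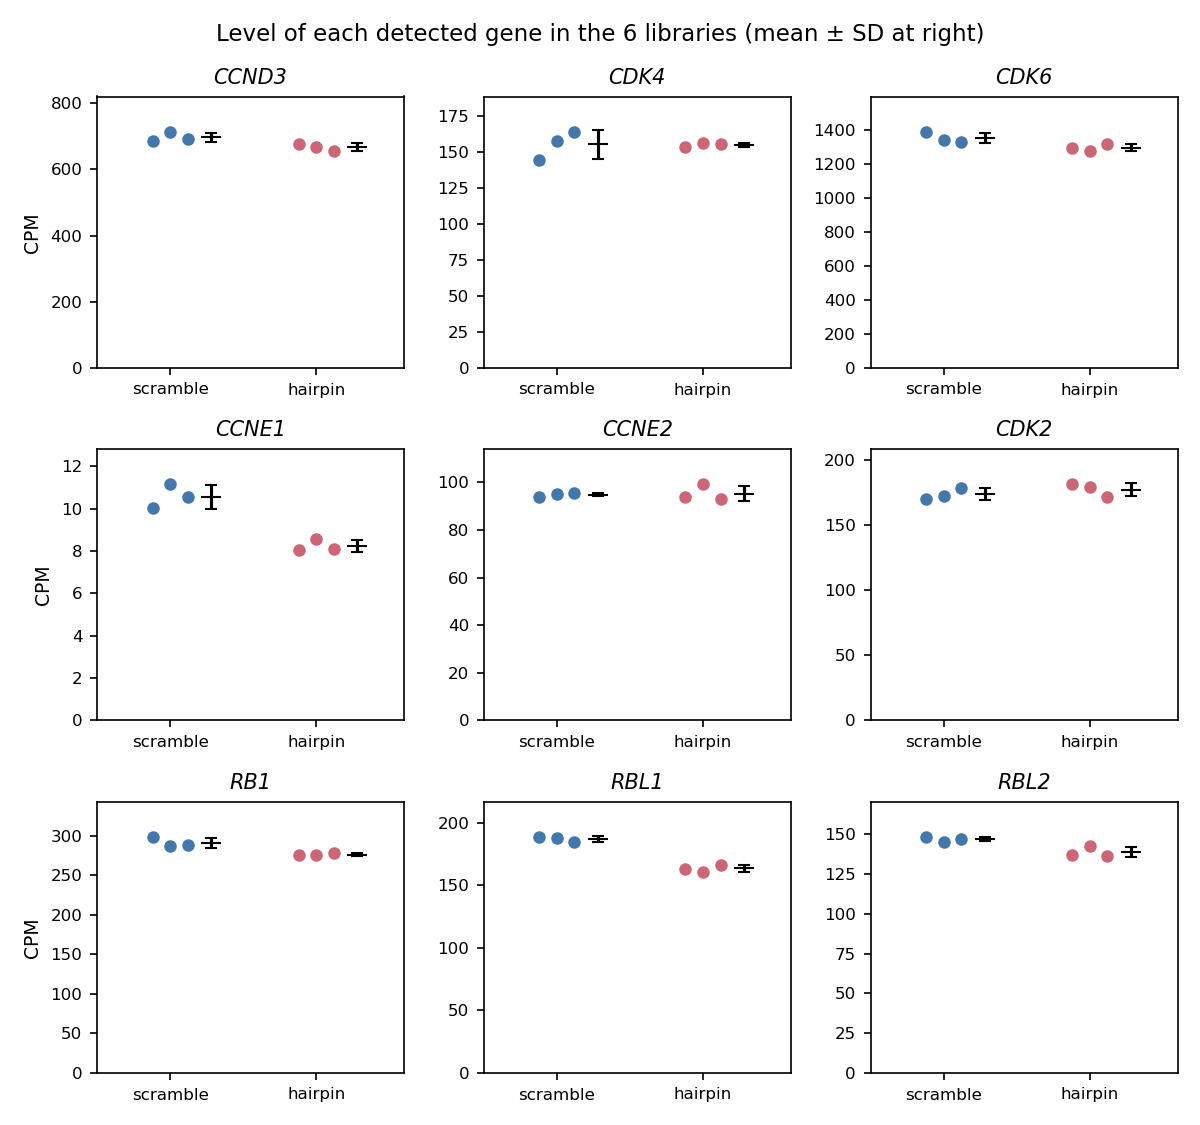
CPM of the 9 detected genes (vertical axes from 0) in the 3 scramble and 3 MEF2C hairpin libraries, each point 1 library, with the mean and SD beside each group. CCNE1 and RBL1 show the widest gaps between groups, while CDK4, CCNE2 and CDK2 overlap.

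**Figure D2:**
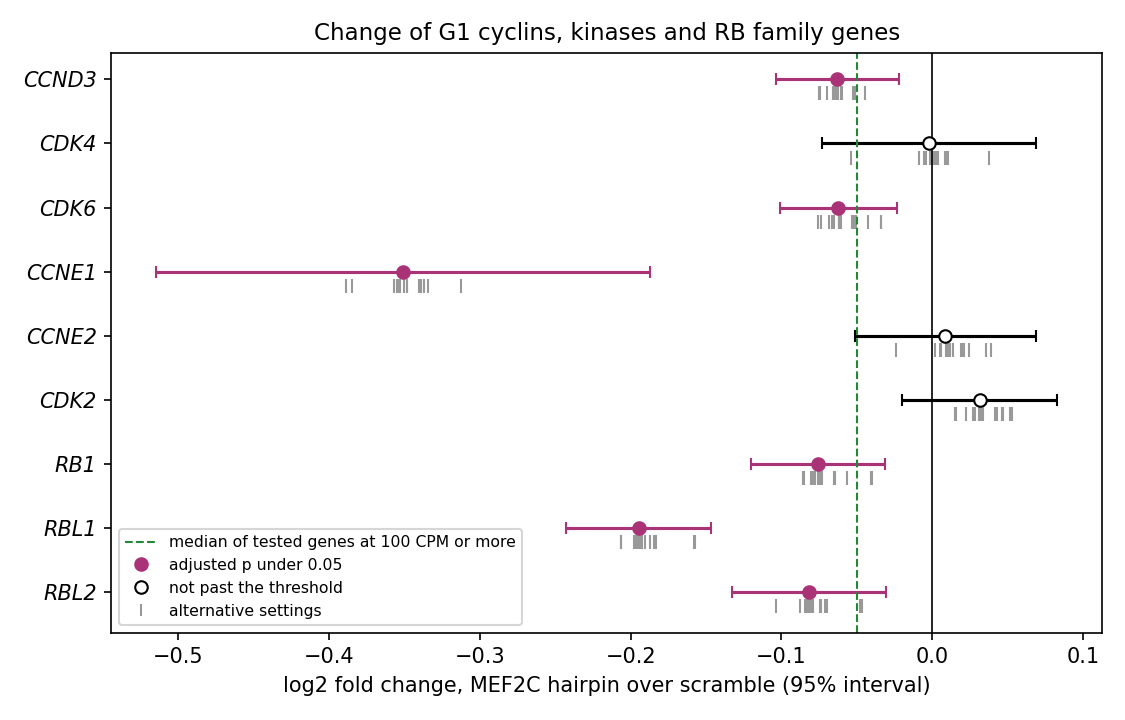
Log2 fold change of each gene, MEF2C hairpin over scramble, with its 95% interval (points and bars) and the values under the 15 alternative settings (grey ticks). CCNE1 at -0.35 and RBL1 at -0.19 lie well left of the dashed median of abundant genes at -0.05, and the intervals of CCND3, CDK6, RB1 and RBL2 include that median.

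Levels were compared between genes as RPKM, the CPM per kilobase of merged exon. In scramble libraries the order ran CCND3 at 120 ± 2.52, CDK6 at 110 ± 2.51, CDK4 at 49.0 ± 3.20, RB1 at 45.1 ± 1.01, CDK2 at 44.6 ± 1.20, RBL1 at 31.4 ± 0.378, CCNE2 at 21.6 ± 0.189, RBL2 at 20.1 ± 0.203 and CCNE1 at 4.14 ± 0.222 RPKM (SD, n = 3 each). CDK4 and RB1 overlapped in scramble libraries, as did RB1 and CDK2, while the other neighbours did not. In the hairpin libraries the means were 115 RPKM for CCND3, 106 for CDK6 and 3.23 for CCNE1. There RB1 and CDK2 changed places in rank, at 42.8 ± 0.227 and 45.6 ± 1.31 RPKM (SD, n = 3 each). The order depends on the length used: when CPM were divided by the length of the transcript whose coding sequence is longest, a choice made after seeing the data, CCND3 stood at 334, CDK6 at 117, and CDK2 came next at 101 CPM per kilobase in scramble libraries.

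**Figure D3:**
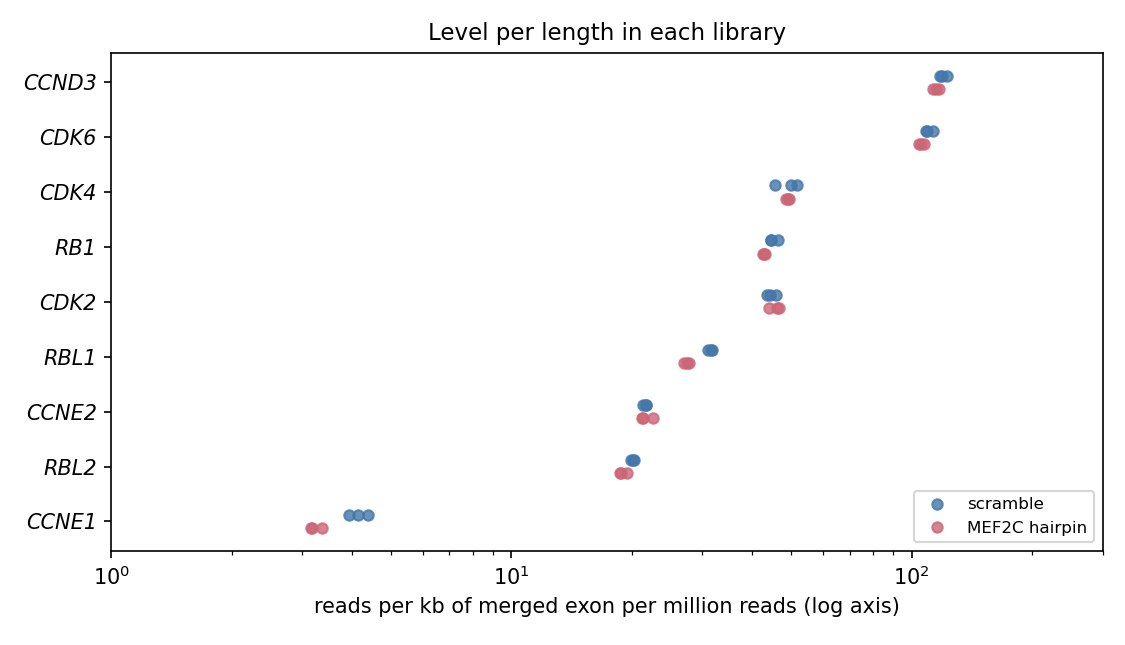
Level per length (RPKM, log axis) of the 9 detected genes in each of the 6 libraries, scramble above and MEF2C hairpin below on each line. CCND3 and CDK6 lead in both groups, and CCNE1 is lowest at about 4.14 RPKM in scramble and 3.23 RPKM in hairpin libraries.

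The genes whose values over the 6 libraries followed RBL1 most closely were LNPEP, ADAMTS17 and RALA. Likeness was the root mean square difference of log2 CPM after each gene's mean was removed, over 9454 coding genes of at least 5 CPM, and came to 0.00801 for LNPEP, 0.00831 for ADAMTS17 and 0.00871 for RALA. LNPEP measured 257 ± 3.43 and 227 ± 2.49 CPM, ADAMTS17 138 ± 1.41 and 120 ± 2.76 CPM, and RALA 99.0 ± 1.89 and 86.1 ± 1.23 CPM in scramble and hairpin libraries (SD, n = 3 each). The log2 fold changes of these genes were -0.18, -0.20 and -0.20, and the 6 points fall into the same 2 groups for all of them. Closeness to the change of RBL1 follows from the way they were chosen.

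The genes that act on these cyclins and kinases moved in both directions. Against the list counts that follow stand 15.3% lower and 13.5% higher of all tested genes. At 20 to 100 CPM 23.5% were lower and 17.0% higher, and at 100 CPM or more 44.9% and 12.6%. Median log2 changes were 0.00 over all tested genes, -0.02 at 20 to 100 CPM and -0.05 at 100 CPM or more. At 5 to 20 CPM, the class of CDKN1A, CDC25C, CDK5 and FBXO4, 8.75% were lower and 22.4% higher, with a median of 0.04. Among the CDK inhibitors 3 of 6 tested genes fell and 1 rose, with a list median of -0.05. CDKN1A, the inhibitor p21, went up from 5.29 ± 0.518 CPM in scramble to 11.04 ± 0.198 CPM in hairpin libraries (SD, n = 3 each), by 1.06 on the log2 scale (edgeR adjusted p = 4.95e-12). Of the INK4 inhibitors of CDK4 and CDK6, 2 fell slightly, CDKN2C (p18) from 428 ± 7.10 to 395 ± 10.3 CPM and CDKN2D (p19) from 43.2 ± 1.00 to 38.5 ± 1.35 CPM (SD, n = 3 each). CDKN2A, the gene of p16, did not pass the test and its groups overlapped, at 71.8 ± 1.23 CPM in scramble and 70.9 ± 0.650 CPM in hairpin libraries (SD, n = 3 each), a log2 change of -0.02 (edgeR adjusted p = 0.73). A count over the whole gene does not separate the p16 transcript from others of CDKN2A. CDKN2B had 0 reads in all 6 libraries, under the same floor as CCND2. CDKN1B, the inhibitor p27, changed by -0.07, a call lost in 11 of 15 alternatives, among them those without scramble replicate 1 or 2 or hairpin replicate 1 or 2, with edgeR, DESeq2 and limma-voom adjusted p from 0.00649 to 0.201.

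Downstream, E2F and DP genes gave 6 lower and 1 higher of 10, with a median of -0.08, and 4 were called without scramble replicate 2. Of the 10, 6 lay at 100 CPM or more, and 5 of those were lower, against 44.9% of all tested genes at that level. The DP partners of E2F had the smallest adjusted p of the list. TFDP2 measured 1117 ± 2.88 CPM in scramble and 963 ± 2.17 in hairpin libraries (SD, n = 3 each), a log2 change of -0.21 (edgeR adjusted p = 4.26e-12). TFDP1 measured 220 ± 2.62 and 201 ± 3.30 CPM, a change of -0.13. E2F8, a repressor E2F, changed by -0.14, and E2F4, which pairs with RBL1 and RBL2, by -0.08, a call lost without scramble replicate 2 or hairpin replicate 2. The MuvB core joins RBL1 or RBL2 in the DREAM repressor complex and MYBL2 in an activator. Of 6 genes, MYBL2 and the core subunits LIN9, LIN37, LIN52, LIN54 and RBBP4, 3 were lower and 1 higher. RBBP4 changed by -0.16, LIN52 by -0.20, MYBL2 by -0.14 and LIN54 by 0.10, the last lost without scramble replicate 2 or 3 or hairpin replicate 2 or 3. Exons of SYNC on the opposite strand cover 18.0% of RBBP4.

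Among E2F target genes of DNA synthesis 10 of 20 were lower and 1 higher, with a median of -0.06. Of the 20, 18 lay at 100 CPM or more, where 9 of the 18 were lower against 44.9% of all genes at that level, so their share was close to the background. The 4 with the smallest adjusted p were RRM1 and RRM2 of ribonucleotide reductase at -0.24 and -0.16, thymidylate synthase TYMS at -0.20 and the replication helicase subunit GINS2 at -0.34, each past the threshold under all 15 alternatives. Other exons cover 46.6% of TYMS and 20.2% of RRM2. MKI67, the proliferation marker, measured 1310 ± 34.6 CPM in scramble and 1213 ± 8.59 in hairpin libraries (SD, n = 3 each), a log2 change of -0.11 (edgeR adjusted p = 1.78e-05).

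Genes that switch CDKs on or off gave 2 lower and 2 higher of 9. CDC25A, the phosphatase that activates CDK2, dropped to 104 ± 2.47 CPM from 123 ± 0.297 in scramble libraries (SD, n = 3 each), a log2 change of -0.25 (edgeR adjusted p = 2.31e-09). CDC37, the chaperone partner that loads CDK4 and CDK6, changed by -0.14, and the mitotic phosphatase CDC25C by 0.23. PKMYT1, an inhibitory kinase of CDK1, changed by 0.12, a call lost without scramble replicate 1, without hairpin replicate 2 and with the GC and length offset. Exons of KREMEN2 and PAQR4 on the opposite strand cover 31.6% of PKMYT1.

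Of 12 genes of cyclin and inhibitor turnover 3 were lower and 1 higher. SKP2, the ubiquitin ligase subunit that removes p27, dropped to 118 ± 1.52 CPM from 131 ± 0.397 in scramble libraries (SD, n = 3 each), a log2 change of -0.15 (edgeR adjusted p = 1.02e-05). CUL3, whose ligase acts on cyclin E, changed by -0.11. SKP1, the adaptor of SKP2, at -0.14 and FBXO4, a ligase subunit for D cyclins, at 0.30 lost their calls in 11 and 6 of 15 alternatives. For SKP1 these include leaving out scramble replicate 1 or 3 or hairpin replicate 1 or 2, and for FBXO4 scramble replicate 2 or 3 or hairpin replicate 1 or 3. Only 2 genes of this list were called by DESeq2, and 2 without scramble replicate 3 or hairpin replicate 1. Of 8 other cyclins and CDKs tested, the mitotic cyclin CCNB1 at 0.06 and CDK5 at 0.30 were higher and the Mediator kinase CDK8 at -0.15 was lower. CDK1 is counted both here and among the E2F targets. CDK8 also lost its call without scramble replicate 1, and CCNB1 without scramble replicate 2. Without hairpin replicate 3 none of these 3 passed in edgeR, though 3 had an unadjusted p under 0.05, and with all libraries DESeq2 and limma-voom each called 1 higher and 1 lower.

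**Figure D4:**
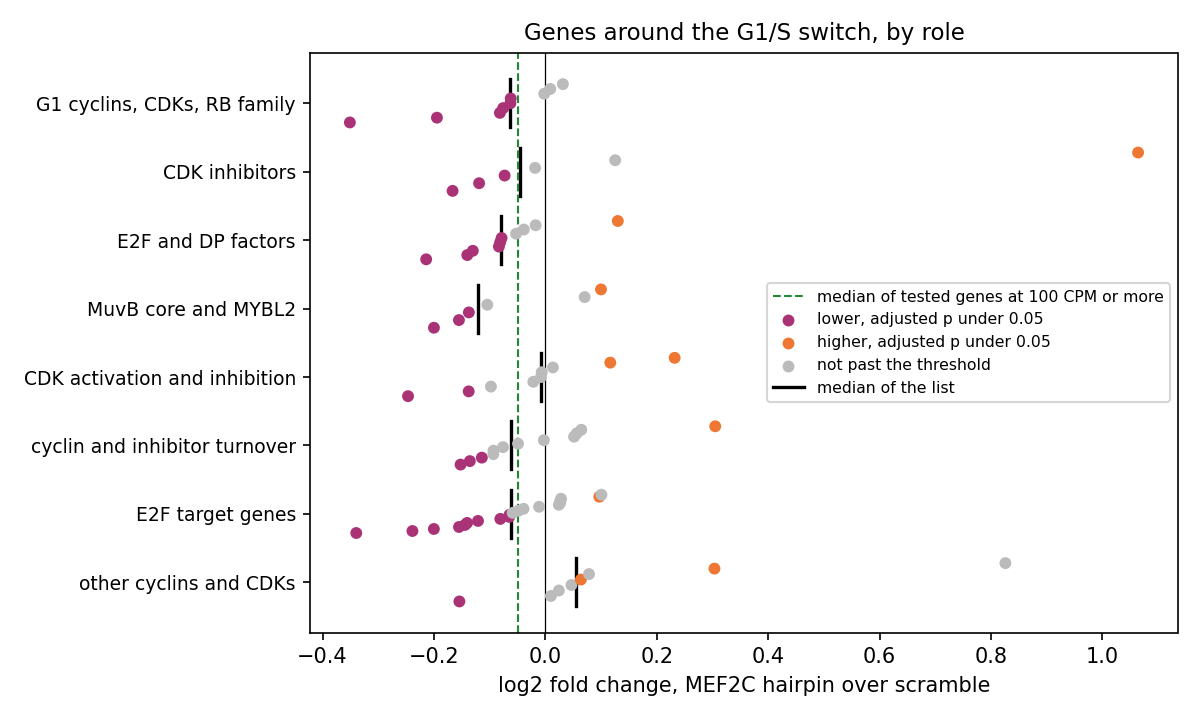
Log2 fold change, MEF2C hairpin over scramble, of each tested gene in the 8 lists by role, coloured by call, with each list's median (black bar) and the median of abundant genes (dashed, -0.05). CDKN1A at 1.06 lies farthest right, followed by CCND1 at 0.83, which did not pass the test, and the 8 list medians lie between -0.12 and 0.06.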

How the data were processed

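Each library has 1 deposited file of raw read counts per gene. Per the submitters' processing notes the authors used Trim Galore, STAR and HTSeq with build hg38, whose versions, annotation release and strand setting are not given. The 5 summary lines that name no gene, 19.2 to 31.4% of reads, stayed out of library sizes and tests. Identifiers were matched to symbols without version suffix. GENCODE 29 (GRCh38) supplied positions, exon lengths, overlaps and 3' UTRs, and RefSeq the promoters. Of the tested genes 89.96% were found in GENCODE 29, so the counts were made with a different annotation. Exon lengths and overlaps may differ from those used in counting.

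After filterByExpr (minimum count 10) and TMM scaling, genes were tested across all genes with edgeR 4.0.16 (R 4.3.3) by a robust quasi-likelihood fit with group as the only term. Standard errors follow from the F statistic, and Benjamini-Hochberg adjustment ran over 17677 genes. CPM use TMM-scaled sizes for tested genes and gene totals for the rest. The chi-square per gene between replicates was 3.31 to 4.5, above sampling noise, so none was taken as a repeat deposit. Same-numbered libraries of the 2 groups did not deviate together. Alternatives were DESeq2 1.42.0, limma-voom (limma 3.58.1), other scalings, filters, a replicate block, a GC and length offset and leaving out each library.

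The genes and lists were chosen with earlier results of these data known. Named beside the members are CCND1, MKI67, MEF2C, the up to 4 genes of each list with the smallest adjusted p past 0.05, and the 3 genes most like RBL1. CDKN2A and CDKN2B, to complete the INK4 genes, and LIN9 and LIN37 are named after their values were seen.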

Additional observations from a re-analysis of the deposited data

How the results depend on the processing

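CCNE1 and RBL1 kept their direction and their call under all 15 alternatives, and no called value changed sign. The number of members past the threshold was 6 with both other scalings, the stricter filter, the replicate block, DESeq2 and limma-voom, 5 with no filter, and 4 to 6 without single libraries. With the GC and length offset it was 3, and 3 again with that offset and the replicate block. CCND3 gave -0.0606 with no filter (adjusted p = 0.0528) and -0.0753 to -0.0449 without single libraries. With the GC and length offset, without and with the replicate block, CDK6 gave -0.0337 and -0.0337, RB1 -0.0403 and -0.0400, and RBL2 -0.0468 and -0.0481. Without single libraries CDK6 ranged from -0.0757 to -0.0429, RB1 from -0.0857 to -0.0564 and RBL2 from -0.103 to -0.0708. The count of called genes without single libraries ran from 4 to 6 for E2F and DP genes, from 2 to 5 for turnover genes and from 0 to 3 for other cyclins and CDKs, and DESeq2 called 2 turnover genes. The cause of these moves was not tested. Same-numbered libraries deviated with correlations of -0.102, 0.0190 and 0.0327 over 10207 genes, and unlike-numbered ones with -0.1293 to 0.1355. No deviation shared by number was seen, which does not show how the libraries were handled. The replicate block gave CCNE1 and the other 5 calls again. At 421 to 846 reads per library, CCNE1 is the least deeply counted of the 9 genes.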
